A study of Mus musculus with 141 samples.

Results

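The genes described here encode the voltage-gated calcium channels, the voltage-gated sodium channels and the HCN channels of the mouse. They were chosen by name alone: every protein-coding gene whose symbol begins with Cacna, Cacnb or Cacng, or is of the form Scn plus a number plus a or b, or of the form Hcn plus a number. The rule gave 44 of the 43432 gene identifiers in the mRNA table. They fall into 7 classes: 10 pore-forming Cav alpha1 subunits, 4 Cav alpha2delta, 4 Cav beta and 8 Cav gamma subunits, 10 pore-forming Nav alpha and 4 Nav beta subunits, and 4 HCN channels.

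Voltage-gated calcium channels open on depolarization. Their alpha1 subunit forms the pore and sets the current type (L, P/Q, N, R or T), while alpha2delta and beta subunits carry the pore to the membrane and tune its gating. Most Cav gamma proteins of the brain act as partners of AMPA-type glutamate receptors rather than of calcium channels. Voltage-gated sodium channels carry the upstroke of the action potential and are anchored and modulated by Nav beta subunits. HCN channels open on hyperpolarization, pass a mixed cation current and support rhythmic firing. Neurons of the medial habenula (MHb) fire spontaneously and send their axons to the interpeduncular nucleus (IPN). Activity in this circuit has been linked to the signs of nicotine withdrawal. The nucleus accumbens (NAc) is a reward region outside the circuit.

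The study asked how chronic nicotine and its withdrawal change RNA in the MHb and the IPN, with the NAc alongside. All mice were male C57BL/6J, 6 weeks old at the start, and all drank saccharine-sweetened water. Nic mice drank nicotine tartrate (200 µg/ml nicotine) for 6 weeks. NAWD mice drank it for 6 weeks and then tartaric acid for 48 hours (acute withdrawal). TA mice drank tartaric acid for 6 weeks. NLWD mice had 4 weeks of tartaric acid after 6 weeks of nicotine (long withdrawal), and TAL mice drank tartaric acid for 10 weeks. Each library pooled tissue punches from 4 animals. The 66 mRNA libraries comprised 4 Nic, 4 NAWD, 4 TA, 5 NLWD and 5 TAL libraries of the MHb, 5, 5, 5, 2 and 3 of the IPN, and 5, 4, 5, 5 and 5 of the NAc, in the same order. Levels are in TPM, which scales transcripts for their length and to the same total in every library. A bulk level cannot tell fewer cells of a type from less RNA per cell.

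Mapped reads per library ranged between 31405268 and 153458226. The summed level of 7 medial habenula markers was 601.36 to 1137.49 TPM in MHb libraries of TA mice, against 9.66 to 20.05 TPM in the IPN and 25.11 to 45.44 TPM in the NAc. The 6 markers of accumbens projection neurons summed to 1567.32 to 3400.93 TPM in the NAc and to 103.59 TPM or less in the other regions. The 5 markers listed for GABA neurons of the IPN did not set it apart from the NAc (1155.46 to 2011.84 TPM in the IPN, against 1630.69 to 2545.26 TPM in the NAc). MHb punches also held choroid plexus and ependymal RNA (10422 to 27556 TPM over 5 markers, against 24.14 to 207.76 TPM in the IPN), and IPN punches held dopamine neuron markers Th and Slc6a3 (57.15 to 158.52 TPM, against 1.39 to 3.39 TPM in the MHb). The part of these cells in the regional differences was not tested. The NAc libraries of TA mice had a high share of long transcripts: genes with a transcript over 6000 nt took 3.17 to 6.20% of their TPM, against 1.16 to 3.94% in the other NAc libraries, of which NAWD replicate 2 (3.94%) and Nic replicate 2 (3.21%) overlapped with them. Many results that use them are therefore set beside those of TAL mice, or beside values with the trend on transcript length removed. For some single genes in the treatment comparisons of the NAc, no such values are given.

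In TA mice, 34 of the 44 channel genes averaged at least 1 TPM in the MHb, 35 in the IPN and 35 in the NAc. Their summed level was 782 ± 272 TPM in the MHb, 1292 ± 374 TPM in the IPN and 1949 ± 502 TPM in the NAc (SD, n = 4, 5 and 5). In 8 genes, no group mean in any region or treatment reached 1 TPM. They were Cacna1f, known from the retina, Cacng1, Cacng6 and Scn4a, known from skeletal muscle, Scn9a, Scn10a and Scn11a, known from peripheral sensory neurons, and Scn7a, a sodium-sensing relative of the Nav channels. Scn4a had the lowest levels, with a highest group mean of 0.014 TPM. Scn9a came closest to the 1 TPM line, with a highest group mean of 0.853 TPM.

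**Figure D1:**
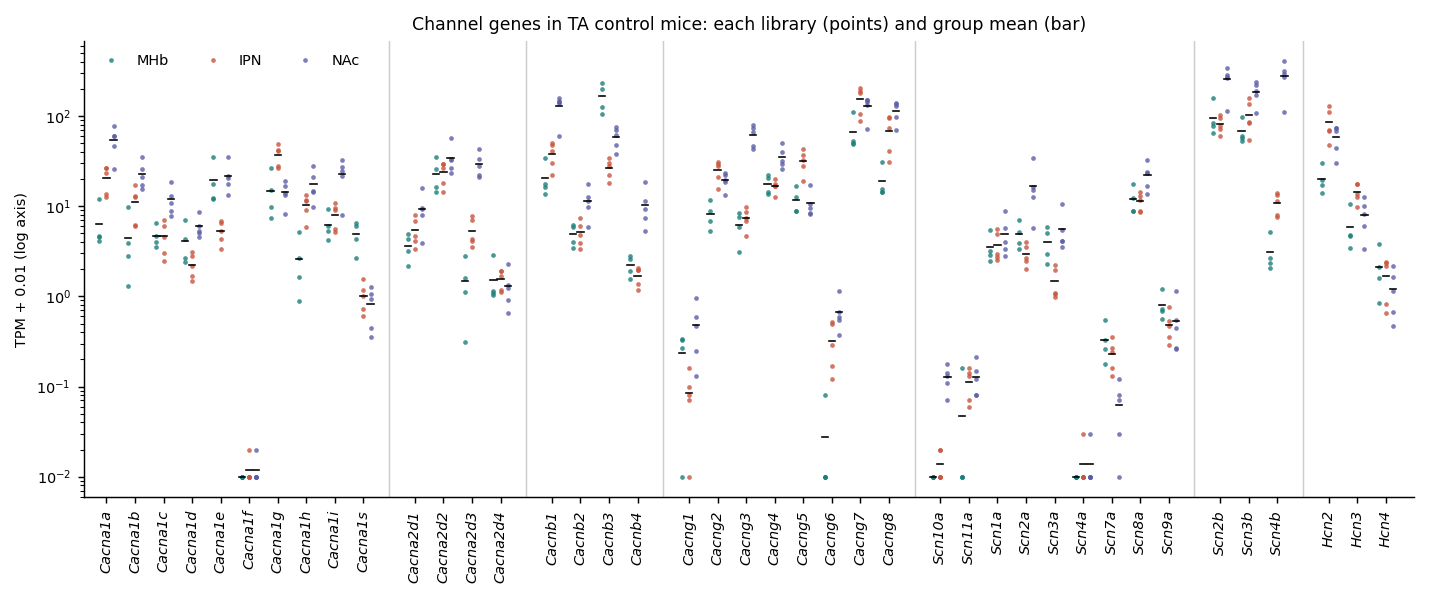
Level of 41 of the 44 channel genes in every MHb, IPN and NAc library of TA mice (points, 4, 5 and 5 libraries) and the group mean (bar), on a log axis of TPM plus 0.01, with classes separated by grey lines. Nav beta genes reach the highest levels, Cacnb3 is highest in the MHb, Scn4b is highest in the NAc, and 8 genes have group means under 1 TPM in all 3 regions.

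The leading gene of a class was often shared by the 3 regions. Hcn2 made up 72.1 ± 4.9% of HCN transcripts in the MHb, 83.0 ± 2.2% in the IPN and 83.0 ± 2.2% in the NAc (SD over 4, 5 and 5 libraries of TA mice). Scn8a, the sodium channel of the axon initial segment and nodes, made up 46.7 ± 1.0%, 51.7 ± 4.0% and 43.2 ± 5.9% of Nav alpha transcripts in the same order of regions. Cacna2d2 led the alpha2delta class (76.9%, 65.8% and 46.1%) and Cacng7 the gamma class (50.2%, 50.7% and 34.9%). The regions parted in the classes that set the calcium current. Among Cav alpha1 genes, the R-type Cacna1e led in the MHb (28.3 ± 3.7%), the T-type Cacna1g in the IPN (37.7 ± 3.7%) and the P/Q-type Cacna1a in the NAc (31.1 ± 5.0%). Among beta subunits, Cacnb3 took 85.5 ± 2.1% in the MHb, whereas Cacnb1 led with 53.1 ± 2.3% in the IPN and 61.1 ± 6.9% in the NAc.

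Differences between regions were tested with limma on log2(TPM + 1), separately in TA mice and in TAL mice, which are different animals. A gene passed the test when its Benjamini-Hochberg adjusted p over all genes tested was under 0.01. In TA mice 39 channel genes could be tested, all but Cacna1f, Cacng6, Scn4a, Scn10a and Scn11a. Between MHb and IPN, 3 were higher and 13 lower in the MHb, where 5.06% of all genes tested were higher and 10.3% lower. Between MHb and NAc, 2 were higher and 22 lower in the MHb (all genes: 6.9% higher and 27.3% lower). Between IPN and NAc, 2 were higher and 17 lower in the IPN (all genes: 6.63% higher and 20.2% lower). The median channel gene differed by -0.26, -1.03 and -0.87 on the log2 scale in these comparisons, and the median of all genes by -0.09, -0.35 and -0.22. The balance of the directions depended on the processing. With the trend on transcript length removed, 5 were higher and 15 lower in the MHb than in the IPN, 7 higher and 17 lower in the MHb than in the NAc, and 10 higher and 13 lower in the IPN than in the NAc, where 26.2%, 38.7% and 33.1% of all genes passed in either direction. With 2 factors of unwanted variation the counts were 5 higher and 7 lower, 6 and 7, and 8 and 12, in the same order (17%, 14.5% and 29.5% of all genes). With quantile normalization they were 5 higher and 14 lower, 4 and 18, and 6 and 19 (25.7%, 36.9% and 34.2% of all genes). Of the genes called at first, 16 of 16, 19 of 24 and 15 of 19 still passed with the length trend removed. The calls lost included Cacna2d1, Cacnb2, Cacng2, Cacng4 and Cacng7 between MHb and NAc, and Cacna1a, Cacna1i and Cacnb2 between IPN and NAc.

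In TAL mice 35 channel genes could be tested, and fewer passed. Between MHb and IPN, 1 was higher and 2 lower in the MHb (all genes: 2.37% higher and 1.65% lower). Between MHb and NAc, 1 was higher and 4 lower in the MHb (all genes: 3.37% higher and 3.27% lower). Between IPN and NAc, 6 were higher and 4 lower in the IPN (all genes: 5.17% higher and 8.39% lower). Of the genes that passed in TA mice and could be tested in TAL mice, 13 of 14, 14 of 22 and 14 of 19 had the same direction in TAL mice. The genes that passed in both sets were Cacnb3, Scn4b and Hcn2 between MHb and IPN, and Cacna2d3, Cacnb3, Cacnb4, Cacng3 and Scn4b between MHb and NAc. Between IPN and NAc they were Cacna1g, Cacna2d3, Cacnb4, Cacng3, Cacng5 and Scn2a. All of them also passed in TA mice with the length trend removed.

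**Figure D2:**
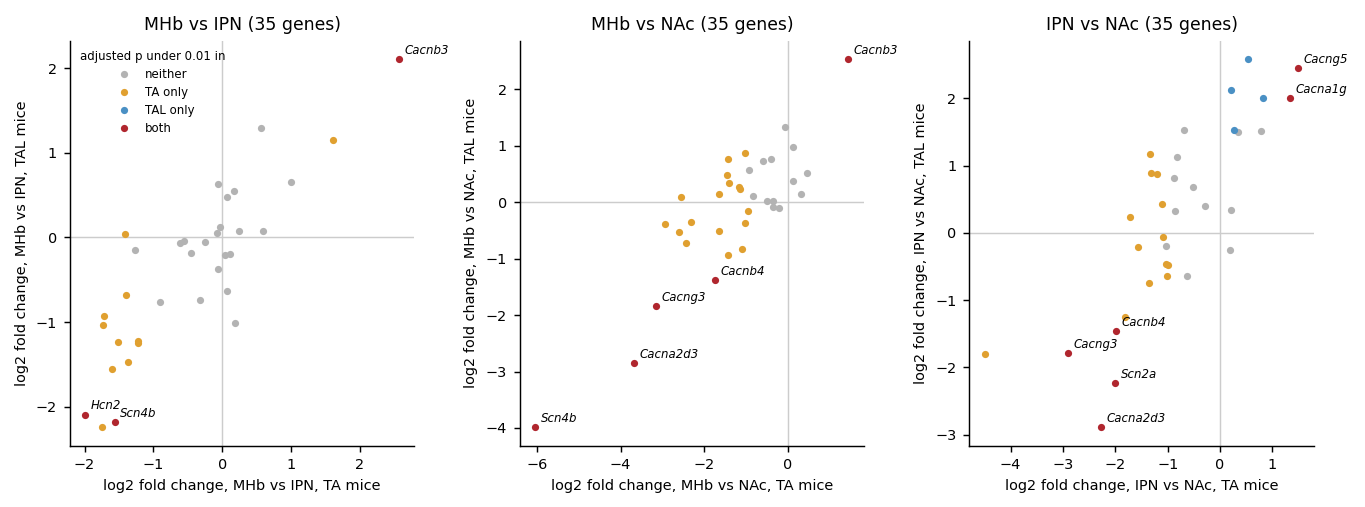
Log2 fold change of TPM plus 1 between pairs of regions for the 35 channel genes tested in both sets of controls, in TA mice (horizontal axis) and TAL mice (vertical axis), coloured by where the adjusted p was under 0.01. Cacnb3 lies at the top right of both MHb panels, and genes named in red passed in both sets.

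Cacnb3 and, at a far lower level, Cacna1s were higher in the MHb than in both other regions of TA mice. Cacnb3 encodes a beta subunit of calcium channels and lies on chromosome 15, 98630840 to 98644529 on the plus strand (GRCm38/mm10, GENCODE vM21). In TA mice it measured 231.81, 197.48, 104.43 and 126.29 TPM in the MHb, against 34.00, 30.15, 17.88, 22.24 and 27.66 TPM in the IPN. The lowest MHb library was above every IPN library and above every NAc library (37.49 to 74.94 TPM). The log2 fold change was 2.56 ± 0.27 (SE, adjusted p = 5.27e-07) in the MHb over the IPN and 1.46 ± 0.27 (adjusted p = 0.000214) over the NAc. In TAL mice it measured 101.4, 203.08, 101.1, 75.84 and 131.63 TPM in the MHb, against 44.42, 25.78 and 15.36 TPM in the IPN. The MHb libraries were again all above the IPN and NAc libraries, with log2 fold changes of 2.11 ± 0.35 (adjusted p = 0.000994) over the IPN and 2.53 ± 0.31 (adjusted p = 1.98e-05) over the NAc.

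The other beta subunits were lower in the MHb and the IPN than in the NAc of TA mice. Cacnb3 was also lower in the IPN than in the NAc of TA mice (log2 fold change -1.10, adjusted p = 0.00192). That call was lost with 2 factors, and Cacnb3 did not pass for this pair in TAL mice. Cacnb1, known also as the beta subunit of skeletal muscle, averaged 20.5 ± 9.4 TPM in the MHb, 38.3 ± 11.8 TPM in the IPN and 130 ± 40 TPM in the NAc. Its log2 fold change was -2.61 ± 0.32 for MHb against NAc (adjusted p = 1.49e-06) and -1.72 ± 0.30 for IPN against NAc (adjusted p = 0.000141). In TAL mice the NAc mean of Cacnb1 was 16.1 TPM and neither difference passed (adjusted p = 0.367 and 0.716). Cacnb4 was the beta gene whose deficit was seen in both sets: it averaged 2.19 TPM in the MHb and 1.69 TPM in the IPN of TA mice, against 10.4 TPM in the NAc, and 1.12 TPM and 1.05 TPM in TAL mice, against 4.67 TPM. Its TA log2 fold changes against the NAc were -1.74 ± 0.28 (MHb, adjusted p = 4.76e-05) and -1.99 ± 0.27 (IPN, adjusted p = 7.13e-06). The TAL differences missed the threshold without MHb replicate 1 (adjusted p = 0.0103) or without IPN replicate 3 (adjusted p = 0.0169).

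Among the pore-forming alpha1 genes of calcium channels, 2 were higher and 3 lower in the MHb than in the IPN of TA mice, and 4 of the 9 tested did not pass (all genes: 5.06% higher and 10.3% lower). Cacna1e (chromosome 1, 154390731 to 154884501), the R-type pore, measured 35.45, 17.71, 12.42 and 12.10 TPM in the MHb, against 6.42, 6.82, 3.37, 4.30 and 5.29 TPM in the IPN. Every MHb library was above every IPN library, and the log2 fold change was 1.61 ± 0.31 (adjusted p = 0.00064). It did not differ detectably from the NAc in TA mice (-0.21 ± 0.31, adjusted p = 0.601). In TAL mice the MHb and IPN libraries did not overlap either (3.97 to 7.70 TPM, against 0.77 to 2.94 TPM), but the difference of 1.15 ± 0.37 did not pass (adjusted p = 0.0561).

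Cacna1s, the L-type pore of skeletal muscle, was the other alpha1 gene higher in the MHb. It measured 6.52, 4.34, 6.07 and 2.66 TPM in the MHb of TA mice, against 0.59 to 1.55 TPM in the IPN and 0.34 to 1.26 TPM in the NAc. The MHb libraries were above all others, with log2 fold changes of 1.53 ± 0.23 over the IPN (adjusted p = 5.88e-05) and 1.68 ± 0.23 over the NAc (adjusted p = 8.9e-06). In TAL mice, where it was listed at 0 TPM in 2 of 3 IPN libraries and was not tested, it measured 2.00 to 12.50 TPM in the MHb, against 0.00 to 1.09 TPM in the IPN and 0.18 to 0.98 TPM in the NAc. These ranges did not overlap.

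The regional differences of the P/Q-type gene Cacna1a varied with the set of controls. Cacna1a (chromosome 8, 84388440 to 84640246), which carries much of the calcium entry that releases transmitter, averaged 6.35 ± 3.84 TPM in the MHb, 20.4 ± 6.8 TPM in the IPN and 54.0 ± 18.9 TPM in the NAc of TA mice. The log2 fold change was -2.94 ± 0.33 for MHb against NAc (adjusted p = 6.44e-07) and -1.34 ± 0.31 for IPN against NAc (adjusted p = 0.00207). In TAL mice its NAc mean was 2.96 TPM, and the sign of IPN against NAc was positive (1.18 ± 0.53, adjusted p = 0.106). The N-type Cacna1b behaved alike for MHb against NAc, at -2.31 ± 0.38 in TA mice (adjusted p = 6.37e-05) and -0.35 ± 0.41 in TAL mice (adjusted p = 0.637). Neither gene passed in both sets for any pair of regions.

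The neuronal L-type genes Cacna1c and Cacna1d and the T-type gene Cacna1i were lower in the IPN than in the NAc of TA mice (-1.21 ± 0.28, -1.10 ± 0.26 and -1.32 ± 0.32, adjusted p = 0.00177, 0.0022 and 0.00243). Cacna1c and Cacna1i were also lower in the MHb than in the NAc (-1.15 and -1.64, adjusted p = 0.00328 and 0.000484). None of these passed in TAL mice, where Cacna1c and Cacna1i had positive differences from the NAc in the IPN (0.87 and 0.89, adjusted p = 0.0488 and 0.0890). The Cacna1c call in the MHb was lost without MHb TA replicate 3 or 4 or NAc TA replicate 1 (adjusted p of up to 0.0133).

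The T-type gene Cacna1g (chromosome 11, 94408391 to 94474198), whose channel opens near rest and supports burst firing, separated the IPN from the NAc in both sets. It measured 41.67, 41.05, 26.20, 27.88 and 49.35 TPM in the IPN of TA mice, against 16.82, 13.97, 8.11, 13.35 and 18.93 TPM in the NAc. No IPN library was as low as any NAc library, and the log2 fold change was 1.33 ± 0.30 (adjusted p = 0.00141). In TAL mice it measured 12.16, 3.88 and 14.89 TPM in the IPN, against 1.07 to 2.28 TPM in the NAc (2.00 ± 0.45, adjusted p = 0.0037). The TAL call was lost (adjusted p up to 0.0159) without IPN replicate 1 or 4 or NAc replicate 1, 3 or 4. Another T-type gene, Cacna1h, was lower in the MHb than in the IPN of TA mice (-1.75 ± 0.34, adjusted p = 0.000661) and than in the NAc (-2.44 ± 0.34, adjusted p = 8.83e-06). In TAL mice the MHb difference from the IPN was -2.24 ± 0.52 and just missed the threshold (adjusted p = 0.0108), with 39.61 TPM in a single IPN library beside 6.08 and 3.34 TPM in the others.

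Cacna2d3 (chromosome 14, 28904943 to 29721864), an alpha2delta subunit, was low in the circuit and high in the NAc. It measured 1.59, 0.30, 2.82 and 1.11 TPM in the MHb of TA mice, against 42.63, 21.12, 22.33, 27.79 and 33.03 TPM in the NAc. IPN libraries lay between these groups without overlap (3.49 to 7.73 TPM). The log2 fold change against the NAc was -3.69 ± 0.31 in the MHb (adjusted p = 9.2e-09) and -2.27 ± 0.29 in the IPN (adjusted p = 4.31e-06). TAL mice gave -2.85 ± 0.37 (adjusted p = 4.24e-05) and -2.89 ± 0.43 (adjusted p = 0.000141). The more abundant Cacna2d2 passed in no regional comparison: its TA means were 22.9 TPM in the MHb, 23.7 TPM in the IPN and 34.5 TPM in the NAc.

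The gamma genes held members that separated the regions in opposite directions. Cacng3 (chromosome 7, 122670492 to 122769393), an auxiliary subunit of AMPA receptors, measured 8.31, 7.51, 5.93 and 3.09 TPM in the MHb of TA mice, against 80.53, 43.38, 46.64, 65.77 and 74.55 TPM in the NAc. Every MHb and IPN library (up to 9.69 TPM) was below every NAc library. The log2 fold change against the NAc was -3.16 ± 0.28 in the MHb (adjusted p = 1.94e-08) and -2.90 ± 0.26 in the IPN (adjusted p = 3.68e-08), and it was -1.84 ± 0.32 and -1.79 ± 0.37 in TAL mice, all past the threshold. Cacng5, an AMPA receptor partner of another subtype, was higher in the IPN. It measured 37.44, 43.63, 18.82, 28.02 and 32.59 TPM in the IPN of TA mice, against 17.01, 8.35, 8.14, 10.47 and 9.65 TPM in the NAc. The groups did not overlap (1.49 ± 0.26, adjusted p = 0.000153), nor did they in TAL mice (2.45 ± 0.41, adjusted p = 0.000411).

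Cacng7 and Cacng8 lie side by side on chromosome 7, 22.5 kb apart, with the muscle gene Cacng6 another 8.5 kb away. Cacng7 averaged 66.0 TPM in the MHb, 154 TPM in the IPN and 131 TPM in the NAc of TA mice. It was lower in the MHb than in the IPN of TA mice (-1.23 ± 0.30, adjusted p = 0.00497), a call lost without any of 6 of the 14 TA libraries (adjusted p of up to 0.0199) and with 2 factors or no filter. In TAL mice it measured 52.88 to 123.60 TPM in the IPN, against 13.05 to 27.18 TPM in the NAc, without overlap (2.12 ± 0.42, adjusted p = 0.00156), and this call held without each of the 13 TAL libraries and under all 7 other settings tried. In TA mice the same comparison gave 0.21 ± 0.29 (adjusted p = 0.601). Its MHb difference from the NAc in TA mice, -1.02 ± 0.30 (adjusted p = 0.00913), was lost with the length trend removed, or without any of 8 of the 14 TA libraries, and turned to 0.18 when 2 factors were fitted. Cacng8, abundant in forebrain AMPA receptor complexes, averaged 18.9 TPM in the MHb, 67.8 TPM in the IPN and 114 TPM in the NAc. It was lower in the MHb than in the IPN (-1.73 ± 0.33, adjusted p = 0.000564) and than in the NAc (-2.56 ± 0.33, adjusted p = 3.48e-06). Neither of these Cacng8 differences passed in TAL mice (adjusted p = 0.192 and 0.919). Cacng2, the founding AMPA receptor partner, was also lower in the MHb than in the IPN of TA mice (-1.51 ± 0.26, adjusted p = 0.000227), and Cacng4 averaged 17.8, 16.7 and 35.5 TPM in the MHb, IPN and NAc.

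Of the 7 Nav alpha genes, the sodium channel pores, tested in TA mice, 2 were lower in the MHb than in the NAc (27.3% of all genes) and 2 were lower in the IPN than in the NAc (20.2%). Scn2a (chromosome 2, 65620771 to 65767447), a main sodium channel of unmyelinated axons, measured 3.52, 4.02, 2.02, 2.65 and 2.46 TPM in the IPN of TA mice, against 34.23, 15.23, 5.65, 12.69 and 16.34 TPM in the NAc. Every IPN library lay below every NAc library, with a log2 fold change of -2.01 ± 0.33 (adjusted p = 7.53e-05) in TA mice and -2.24 ± 0.34 (adjusted p = 0.000185) in TAL mice. Scn3a, a sodium channel most abundant in the developing brain, was also lower in the IPN than in the NAc of TA mice (-1.36 ± 0.28, adjusted p = 0.000721), but not past the threshold in TAL mice (-0.74 ± 0.25, adjusted p = 0.0348). Scn8a, the most abundant pore, averaged 11.9 TPM in the MHb, 11.3 TPM in the IPN and 22.0 TPM in the NAc and passed in none of the regional comparisons. Scn1a, the sodium channel of fast-spiking interneurons, did not pass in any either, with TA means of 3.50, 3.73 and 4.95 TPM in the MHb, IPN and NAc.

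Scn4b (chromosome 9, 45138395 to 45154152) gave the widest gap of all channel genes. Its product is a beta subunit linked to resurgent sodium current and is abundant in striatal projection neurons. It measured 5.19, 2.35, 2.06 and 2.67 TPM in the MHb of TA mice, 14.02, 11.29, 7.52, 8.03 and 13.22 TPM in the IPN, and 402.77, 111.76, 313.41, 273.04 and 292.05 TPM in the NAc. The 3 regions did not overlap. The log2 fold change against the NAc was -6.05 ± 0.32 in the MHb (adjusted p = 9.32e-12) and -4.49 ± 0.30 in the IPN (adjusted p = 4.76e-10). In TAL mice Scn4b measured 0.87 to 3.42 TPM in the MHb (-3.98 ± 0.41 against the NAc, adjusted p = 3.33e-06) and 3.98 to 22.93 TPM in the IPN (-1.80 ± 0.48, adjusted p = 0.0101), against 29.03 to 86.27 TPM in the NAc. The IPN difference thus missed the threshold in TAL mice although the groups did not overlap. The MHb was below the IPN in both sets (-1.56 ± 0.32, adjusted p = 0.00102 in TA mice and -2.18 ± 0.48, adjusted p = 0.00668 in TAL mice). The TAL call for MHb against IPN was lost without any of 10 of the 13 TAL libraries, with an adjusted p of up to 0.0279.

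The neighbouring gene Scn2b lies 8.3 kb from Scn4b on the same strand and did not share this pattern. It averaged 96.3 ± 42.6 TPM in the MHb, 81.8 ± 17.2 TPM in the IPN and 255 ± 85 TPM in the NAc of TA mice, and 47.6 ± 18.6, 35.7 ± 25.5 and 36.6 ± 11.9 TPM in TAL mice. Its differences from the NAc passed in TA mice (MHb -1.40, adjusted p = 0.000753, and IPN -1.57, adjusted p = 0.000197) and not in TAL mice (adjusted p = 0.578 and 0.728). Scn3b averaged 67.4 TPM in the MHb, 104 TPM in the IPN and 185 TPM in the NAc of TA mice, and only its MHb difference from the NAc passed (-1.44 ± 0.30, adjusted p = 0.000589). That call was lost with 2 factors. In TAL mice the direction was the opposite and the difference did not pass. Scn3b measured 17.54, 70.55, 27.98, 25.71 and 31.28 TPM in the MHb there, against 16.94, 27.88, 18.00, 17.62 and 11.50 TPM in the NAc.

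Hcn2 (chromosome 10, 79716634 to 79736108), the main HCN gene here, was lower in the MHb than in the IPN. It measured 30.21, 19.39, 17.12 and 13.97 TPM in the MHb of TA mice, against 128.19, 110.67, 48.34, 67.64 and 69.44 TPM in the IPN. Every MHb library was below every IPN library, in TA mice (-1.99 ± 0.31, adjusted p = 8.22e-05) and in TAL mice (5.56 to 17.91 TPM, against 26.46 to 107.49 TPM, -2.10 ± 0.46, adjusted p = 0.00693). The TAL call was lost without any of 8 of the 13 TAL libraries, with an adjusted p of up to 0.0289. In TAL mice Hcn2, Hcn3 and Hcn4, the main pacemaker HCN gene of the heart, were all higher in the IPN than in the NAc (2.58, 2.00 and 1.53 on the log2 scale, with adjusted p = 0.000681, 0.00102 and 0.00861). The Hcn4 call was lost without any of 12 of the 13 TAL libraries (adjusted p of up to 0.0469), with a pseudocount of 0.1 and with no filter. In TA mice the same differences were 0.53, 0.82 and 0.27, and none passed (adjusted p = 0.159, 0.0365 and 0.472).

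A list of 27 channel partners (fibroblast growth factor homologues that bind Nav channels, ankyrins, RGK proteins, presynaptic RIM scaffolds and the NALCN complex) was counted in the same fits. Of the 25 in the table, 24 were tested in TA mice. Between MHb and IPN 5 were lower in the MHb and 0 higher (lower among all genes: 10.3%), between MHb and NAc 0 were higher and 14 lower (27.3%), and between IPN and NAc 1 was higher and 9 lower (20.2%). The NALCN regulator gene Unc79 and the RIM genes Rims1 and Rims2 were lower in both MHb and IPN than in the NAc, whereas Rrad, an RGK inhibitor of calcium channels, was higher in the IPN. In TAL mice only Rem2, another RGK gene, passed, lower in the MHb and the IPN than in the NAc.

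Treatment was compared within each region: Nic against TA, NAWD against TA, NAWD against Nic, and NLWD against TAL. These fits carried factors of unwanted variation estimated from differences between libraries of the same group, after the methods of the study. In 11 of the 12 comparisons no channel gene passed. The exception was Nic against TA in the NAc, where 3 genes were lower. For NAWD against TA, 22 of 18028 genes of any kind passed in the IPN and 0 in the NAc. For Nic against TA in the MHb, 0 passed. The study, which fitted read counts, reported more changed mRNAs in each of these comparisons. For NAWD against TA in the MHb, 193 of 17013 passed, nearer to the number in the study. A count of 0 channel genes therefore cannot show that channel genes did not respond. The comparisons with TA share the TA libraries of their region, and those with Nic share the Nic libraries.

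**Figure D3:**
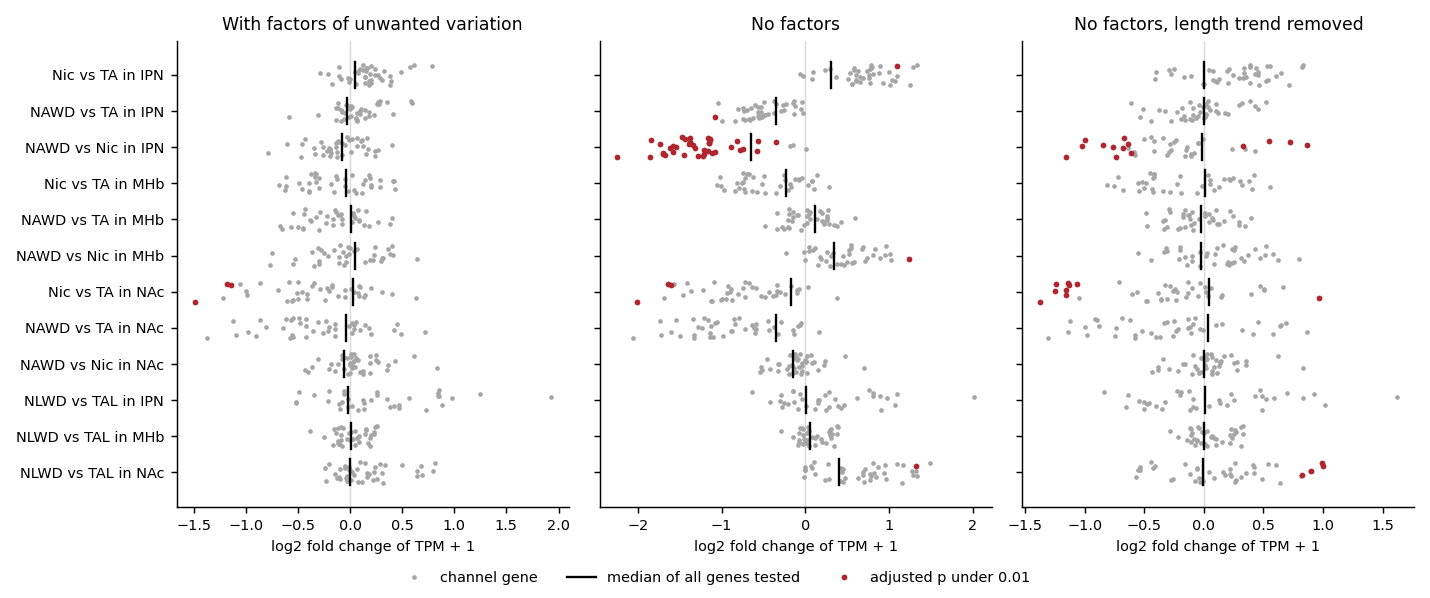
Log2 fold change of TPM plus 1 of each tested channel gene (points) in the 12 treatment comparisons, with factors of unwanted variation (left), without them (middle) and without them but with the transcript length trend removed (right). Black ticks give the median of all genes tested and red points an adjusted p under 0.01. The 3 red points at the left are Cacna1a, Scn2b and Scn3b in the NAc of Nic against TA mice, and the middle panel shows 38 red points for NAWD against Nic in the IPN.

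Among Nic, NAWD and TA mice, the levels of the channel genes in the IPN were highest in Nic and lowest in NAWD libraries on average. All 35 genes averaging at least 1 TPM in TA mice had a higher mean in Nic than in TA mice, and 0 of the 35 had a higher mean in NAWD than in TA or Nic mice. The median ratio of means was 1.80 for Nic over TA, 0.605 for NAWD over TA and 0.315 for NAWD over Nic. In fits without factors, the median of all genes moved the same way (0.30, -0.35 and -0.64 on the log2 scale). The median channel gene differed by 0.74, -0.53 and -1.22 there. In NAWD against Nic, 35 of the 41 genes tested were lower with no overlap between groups, and 51.7% of all 18028 genes were lower with no overlap. The P/Q-type gene Cacna1a measured 11.43, 11.74, 12.35, 5.29 and 7.54 TPM in NAWD libraries, against 33.10, 77.99, 27.02, 77.38 and 44.78 TPM in Nic libraries. Hcn2 measured 45.05 to 77.78 TPM in NAWD libraries, against 114.96 to 209.96 TPM in Nic libraries. All NAWD libraries lay below all Nic libraries in both genes.

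Several other features of the IPN libraries differed between these groups. Genes with a transcript over 6000 nt took 3.01 to 5.23% of TPM in Nic libraries, 1.40 to 1.93% in NAWD libraries and 1.92 to 3.26% in TA libraries. The 5 oligodendrocyte markers summed to 5922 to 17584 TPM in Nic, 1426 to 2814 TPM in NAWD and 4742 to 9005 TPM in TA libraries, and the 5 neuronal markers to 1012.98 to 1628.2, 466.18 to 622.49 and 728.02 to 963.07 TPM. Reads mapping to several places made up 7.77 to 13.01%, 17.78 to 20.44% and 12.25 to 19.07% of input. The 5 markers listed for IPN GABA neurons had mean sums of 2823, 2016 and 1703 TPM in Nic, NAWD and TA libraries. Their ranges overlapped (1753 to 4177, 1351 to 2855 and 1155 to 2012 TPM). Unlike in the channel genes, their NAWD mean was above their TA mean. The part of these features in the shift was not tested.

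With the factors in the fit, 0 of the 41 channel genes passed in NAWD against Nic in the IPN (0.00555% of all genes passed), and the median channel gene differed by -0.12. At an unadjusted p under 0.05 there was 1, where 14% of all genes were. Without factors 38 of the 41 passed, all lower, while 60.9% of all genes passed in either direction and the median of all genes was -0.64. Without factors and with the length trend removed, 4 were higher and 10 lower (36.8% of all genes passed). The 10 were Cacna1a (-1.15), Cacna1b, Cacna2d1, Cacng3, Cacng5, Cacng7 (-1.02), Cacng8, Scn1a, Scn3b (-1.0) and Hcn2. The 4 higher genes, Cacng6, Scn7a, Scn9a and Scn11a, are among those under 1 TPM in every group. The call in this comparison therefore depended on whether factors were fitted.

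**Figure D4:**
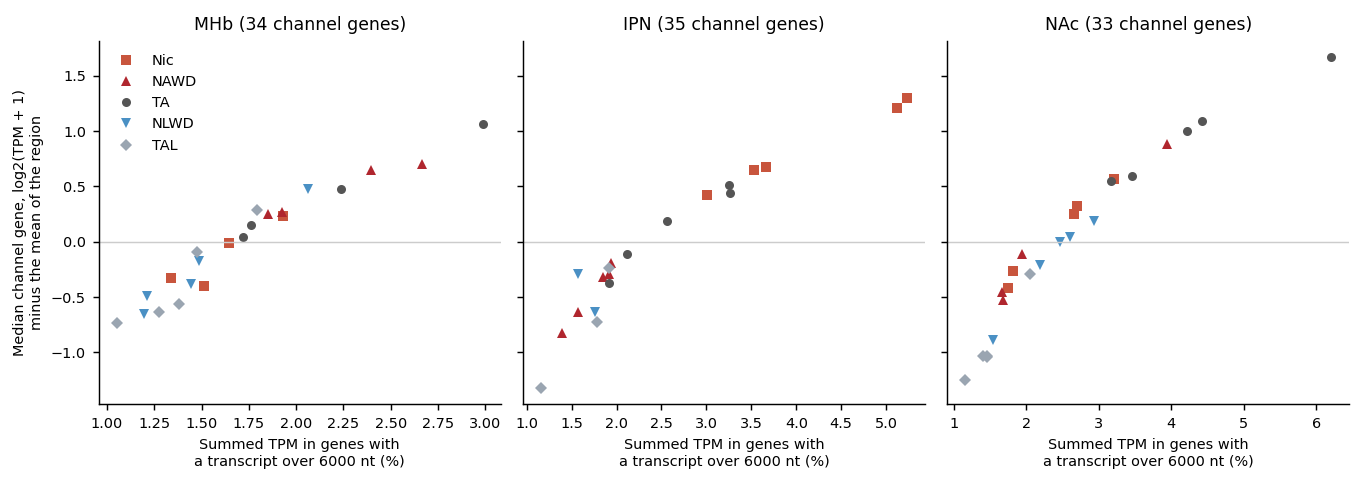
Median deviation of the channel genes in each library from their mean over the region, on the log2(TPM + 1) scale, against the percentage of TPM in genes with a transcript over 6000 nt, in the MHb (34 genes), IPN (35) and NAc (33). Each point is a library. In all 3 regions the libraries with a larger share of long transcripts have higher channel gene levels, and Nic libraries of the IPN and TA libraries of the NAc lie at the upper right.

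The other IPN comparisons with TA also gave 0 genes past the threshold. In Nic against TA 0 of 41 passed (0% of all genes) and 9 had an unadjusted p under 0.05 (13.9% of all genes). In NAWD against TA 0 of 41 passed (0.122% of all genes) and 3 had an unadjusted p under 0.05 (15.5%). In Nic against TA, Cacng2 had a difference of 0.38 ± 0.15 (adjusted p = 0.265). In NAWD against TA the smallest p values were those of Cacnb3 (0.41 ± 0.13, adjusted p = 0.138) and of Cacna2d1, an alpha2delta subunit that binds gabapentin (-0.59 ± 0.21, adjusted p = 0.19). Cacna2d1 measured 1.63 to 2.51 TPM in NAWD libraries, against 3.33 to 8.02 TPM in TA libraries, without overlap, and it had the smallest p in NAWD against Nic as well (-0.79 ± 0.30, adjusted p = 0.276).

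In the MHb the order of the groups differed from that in the IPN. Nic means were above TA means in 5 of 34 genes and NAWD means above Nic means in 33 of 34, with median ratios of 0.594 for Nic over TA, 0.992 for NAWD over TA and 1.55 for NAWD over Nic. Without factors, the median of all genes differed by -0.23, 0.11 and 0.35 on the log2 scale in these comparisons. The median channel gene differed by -0.51, 0.02 and 0.48. None of the 38 genes tested passed in Nic against TA (0% of all genes), NAWD against TA (1.13%) or NAWD against Nic (0.6%). At an unadjusted p under 0.05 there were 7, 9 and 6, beside 12.4%, 18.5% and 15.1% of all genes. Scn2b and Cacnb1 had the smallest p values in Nic against TA (both -0.62 ± 0.16, adjusted p = 0.224). Scn2b measured 32.63, 56.23, 34.33 and 60.96 TPM in Nic libraries, against 159.31, 77.85, 65.27 and 82.91 TPM in TA libraries, which did not overlap. Cacna1e and Cacna1i had the smallest p values in NAWD against TA (-0.57 ± 0.14, adjusted p = 0.0498 and -0.67 ± 0.17, adjusted p = 0.0602), though their raw ranges overlapped (Cacna1e 9.73 to 24.63 TPM in NAWD, against 12.10 to 35.45 TPM in TA libraries).

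Cacnb1 passed in no MHb comparison, but its NAWD and Nic libraries stood well apart. It measured 23.85, 25.44, 20.43 and 21.11 TPM in NAWD libraries, against 8.23, 13.00, 6.13 and 10.05 TPM in Nic libraries (0.64 ± 0.18, adjusted p = 0.102). Scn1a had a smaller p in this comparison, with overlapping raw levels (2.11 to 4.12 TPM in NAWD, against 2.78 to 5.44 TPM in Nic libraries, -0.75 ± 0.20, adjusted p = 0.0844). Cacnb3 measured 130.71 to 154.27 TPM in NAWD, 46.14 to 99.57 TPM in Nic and 104.43 to 231.81 TPM in TA libraries. Nic libraries thus lay below both other groups, without passing the test against TA (-0.68 ± 0.21, adjusted p = 0.245). Other features differed between these MHb groups. The medial habenula markers summed to 1286 to 1580 TPM in NAWD, 304 to 617 TPM in Nic and 601 to 1137 TPM in TA libraries, so that NAWD libraries lay above TA libraries, unlike Cacnb3. The 5 oligodendrocyte markers summed to 1563 to 2469 TPM in NAWD, 653 to 932 TPM in Nic and 648 to 1451 TPM in TA libraries, and the 5 microglia markers to 236 to 286, 64.7 to 90.4 and 51.6 to 153 TPM. Reads mapping to several places made up 15.1 to 17.57%, 20.2 to 26% and 13.84 to 20.77% of input. NAWD and Nic libraries did not overlap in any of these, and their part in the differences was not tested.

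In the NAc, the mean levels of most channel genes were lower in Nic and NAWD mice than in TA mice, while few or none passed the test. None of 35 genes had a higher mean in Nic than in TA mice and 1 had a higher mean in NAWD than in TA mice (median ratios 0.482 and 0.468). Without factors, the median of all genes differed by -0.18 and -0.35 on the log2 scale, and the median channel gene by -0.77 and -0.88. In Nic against TA, 3 of 42 genes passed (7.14%), all lower and all changed more than 2-fold, where 1.37% of all genes were lower and 0.722% were lower by more than 2-fold. These were Cacna1a, Scn2b and Scn3b. Of the 42 genes, 12 were lower in Nic libraries without overlap, against 11.2% of all genes. With the factors in the fit, 30 of the 42 had a negative and 12 a positive difference. The median channel gene differed by -0.32 and the median of all genes by 0.02.

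Cacna1a, the P/Q-type pore, measured 14.93, 22.37, 15.59, 6.23 and 7.03 TPM in Nic libraries, against 76.57, 26.11, 60.79, 59.84 and 46.56 TPM in TA libraries (log2 fold change -1.49 ± 0.30, adjusted p = 0.00961). Scn2b measured 91.96, 100.88, 93.22, 67.33 and 51.62 TPM in Nic libraries, against 342.40, 114.45, 261.56, 285.22 and 273.33 TPM in TA libraries (-1.14 ± 0.22, adjusted p = 0.00934). Scn3b, another Nav beta subunit, measured 61.00, 72.40, 76.19, 46.75 and 37.07 TPM in Nic libraries, against 222.65, 107.40, 236.43, 188.92 and 169.20 TPM in TA libraries (-1.19 ± 0.23, adjusted p = 0.00956). In all 3 genes every Nic library was below every TA library, and TA replicate 2 was the lowest of its group. The adjusted p values lay just under the threshold: the count was 10 without TA replicate 2 and 0 without any other TA library or any Nic library. It was 1, 1, 0 and 5 without NAWD replicates 1, 2, 3 and 4, which share the fit. It was 0 with a replicate block (0.0116% of all genes), 0 with only the Nic and TA libraries in the fit and 0 with no filter, where no gene of any kind passed. It was 6, all lower, with the length trend removed and the factors kept (5% of all genes). With the length trend removed and no factors it was 9, of which 1 was higher and 8 were lower (5.84% of all genes). For the counts with a library left out no share of all genes is given, so they show only how the calls moved.

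The long-transcript share of the NAc libraries moved in the same direction (1.75 to 3.21% of TPM in Nic, against 3.17 to 6.20% in TA libraries). The 6 projection neuron markers summed to 1253 to 1605 TPM in Nic libraries, against 1567 to 3401 TPM in TA libraries, and the 5 neuronal markers to 842 to 1683 TPM, against 666 to 2183 TPM. Transcripts of the mitochondrial genome summed to 86090 to 124629 TPM in Nic libraries, against 50403 to 76735 TPM in TA libraries. Reads mapping to several places made up 13.82 to 18.89% of input in Nic libraries, against 9.03 to 14.09% in TA libraries. The part of these in the 3 calls was not tested, beyond the values with the length trend removed. TAL libraries, which are also controls, had lower levels still: Cacna1a measured 1.14 to 6.48 TPM, Scn2b 29.82 to 57.77 TPM and Scn3b 11.50 to 27.88 TPM.

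**Figure D5:**
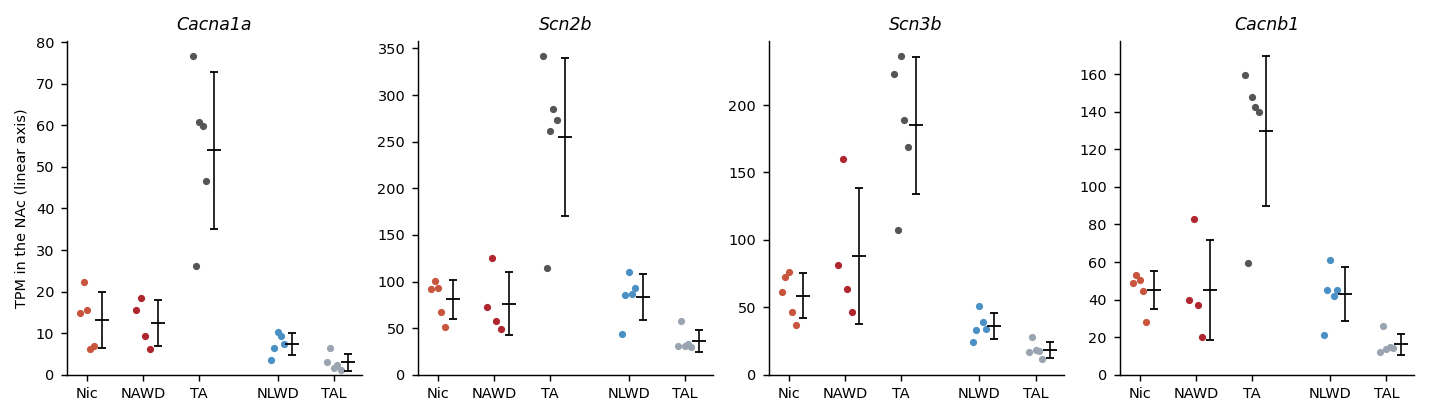
TPM of Cacna1a, Scn2b, Scn3b and Cacnb1 in each NAc library (points) of Nic, NAWD and TA mice and of NLWD and TAL mice, with the group mean and SD (bars), on linear axes. Every Nic library lies below every TA library in the 4 genes, and the TAL libraries, the other control group, lie at the foot of each panel.

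The remaining Nav beta, gamma and HCN genes of the NAc had lower levels in Nic mice in most cases without passing. All 4 Nav beta and all 4 HCN genes had a negative log2 difference (class medians -1.10 and -0.54). Scn4b averaged 91.8 ± 34.4 TPM in Nic libraries, against 279 ± 106 TPM in TA libraries (-1.05 ± 0.27, adjusted p = 0.0215). Cacng7 (-1.0, adjusted p = 0.0138), Cacng8 (-0.69, adjusted p = 0.0142) and Hcn2 (-0.86, adjusted p = 0.0177) fell just short. With the factors in the fit, the class medians of alpha2delta and Nav alpha genes lay near 0 (0.02 and -0.04). These medians cover genes of both signs, 2 positive and 2 negative, and 4 positive and 5 negative. The summed levels of both classes were lower in Nic than in TA mice, at 50.6 against 74.5 TPM and 28.7 against 52.7 TPM. Of the partner genes, Nfasc, a node and initial segment adhesion protein, and Nedd4l, a ubiquitin ligase of sodium channels, were lower in Nic than in TA libraries and passed.

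NAWD against TA in the NAc gave 0 of 42 genes past the threshold (0% of all genes) and 17 with an unadjusted p under 0.05 (21.5% of all genes). The count was 7 without TA replicate 2, a fit for which no share of all genes is given. Scn2b measured 72.43, 124.93, 57.94 and 49.46 TPM in NAWD libraries, against 114.45 to 342.40 TPM in TA libraries (-1.13 ± 0.25, adjusted p = 0.0373). Cacna2d4, a low-level alpha2delta gene, pointed the other way at 1.06, 3.53, 0.89 and 1.18 TPM in NAWD libraries, against 0.65 to 2.26 TPM in TA libraries (0.72 ± 0.16, adjusted p = 0.0373). It also had the smallest p in NAWD against Nic (0.12 to 0.87 TPM in Nic libraries, 0.83 ± 0.13, adjusted p = 0.0254), where 0 of 42 genes passed (0.0175% of all genes) and 5 had an unadjusted p under 0.05 (15.2%). Scn3b was next there (0.62 ± 0.22, adjusted p = 0.194).

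Long withdrawal left no channel gene past the threshold in any region. In the NAc, 34 of 35 genes had a higher mean in NLWD than in TAL mice, with a median ratio of 1.90. Without factors, the median of all genes differed by 0.40 on the log2 scale and the median channel gene by 0.69. Cacnb3 measured 27.29, 53.17, 66.49, 49.18 and 54.13 TPM in NLWD libraries, against 16.54, 26.71, 18.29, 19.85 and 16.14 TPM in TAL libraries. The groups did not overlap, and the log2 difference of 0.69 ± 0.14 did not pass (adjusted p = 0.0626). Of 42 genes 0 passed (0% of all genes), 9 had an unadjusted p under 0.05 (14.6%), and without factors and with the length trend removed 4 passed, all higher (1.52% of all genes). NLWD and TAL libraries differed in their share of long transcripts (1.54 to 2.93%, against 1.16 to 2.05% of TPM) and in projection neuron markers (978 to 2612 TPM, against 540 to 1062 TPM), and the part of these was not tested.

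In the MHb, 0 of 38 genes passed in NLWD against TAL (0.0059% of all genes), with 1 at an unadjusted p under 0.05 (6.24%), and the median ratio of means was 1.06. Scn8a (-0.39 ± 0.13, adjusted p = 0.785) and Scn3a (0.23 ± 0.13, adjusted p = 0.814) had the smallest p values. In the IPN, with 2 NLWD and 3 TAL libraries, 0 of 36 passed (0.0861% of all genes) and 1 had an unadjusted p under 0.05 (7.13%). That gene, Scn2a, measured 0.75 and 16.03 TPM in NLWD libraries, against 0.73, 0.42 and 0.01 TPM in TAL libraries (1.93 ± 0.81, adjusted p = 0.688), so that a single library carried it. Scn2b was next (1.25 ± 0.59, adjusted p = 0.711).

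Whether a treatment effect differed between regions was tested directly over the TA, Nic and NAWD libraries of all 3 regions, with 38 channel genes. For NAWD against TA, the IPN effect exceeded the NAc effect in 2 genes, where 3.39% of all genes were higher: Scn2b (difference 1.21 ± 0.24, adjusted p = 0.00122) and Cacnb1 (0.91 ± 0.19, adjusted p = 0.00235). Scn2b averaged 67.0 TPM in NAWD and 81.8 TPM in TA mice in the IPN, and 76.2 and 255 TPM in the NAc. Cacnb1 averaged 26.9 TPM in NAWD and 38.3 TPM in TA mice in the IPN, and 44.9 and 130 TPM in the NAc. The NAWD mean was thus a smaller share of the TA mean in the NAc for both. Neither gene passed without factors or without NAc NAWD replicate 2 (adjusted p = 0.0293 for Scn2b and 0.0579 for Cacnb1), and Cacnb1 did not pass without NAc TA replicate 1 or 3.

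For Nic against TA, Cacna1s differed between MHb and NAc (-1.20 ± 0.28, adjusted p = 0.00526), where 1.91% of all genes were lower. It averaged 2.54 TPM in Nic and 4.90 TPM in TA mice in the MHb, and 1.39 and 0.804 TPM in the NAc. It did not pass without any of 10 of the 41 libraries (adjusted p of up to 0.021), among them NAc Nic replicates 1, 4 and 5, nor without factors or with quantile normalization. No channel gene passed for IPN against MHb under either treatment (0 of 38 for NAWD, 1.82% of all genes, and 0 of 38 for Nic, 0% of all genes), nor for MHb against NAc in NAWD against TA (0 of 38, 0.251% of all genes). At an unadjusted p under 0.05 there were 12, 12 and 6, beside 20.8%, 10.4% and 19.3% of all genes. Cacna1s is a low-level gene, and the NAc effects rest on the NAc libraries of TA mice.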

How the data were processed

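Per the labels and methods, RNA over 30 nt from tissue punches, pooled from 4 animals per library, was sequenced as stranded poly(A) libraries. The authors aligned reads to mm10 with STAR 2.5.3a and deposited RSEM 1.3.0 values as TPM per gene. They also deposited the count of mapped reads per library and the fraction of reads mapping to several places, used here for depth only. Tables of the authors' own comparisons (log2 fold changes, FDR) were not used, and neither were the small RNA files. TPM carries no read counts, so limma 3.58.1 (R 4.3.3, trend, log2(TPM + 1)) took the place of the DESeq2 1.14.1 of the study. Genes were tested if above 0 TPM in at least a share of 0.5 of the libraries of each group. Factors of unwanted variation were computed in the RUVs manner from differences between libraries of a group, by own code, with the numbers the study used: 2 (IPN), 2 (MHb) and 1 (NAc) for Nic, NAWD and TA libraries, and 1, 1 and 2 for NLWD and TAL libraries. The fit of differences between regions had 2 factors and the comparisons of regions none, a choice made here. P-values were adjusted by Benjamini-Hochberg over all genes tested. They measure the spread between libraries, each a pool of animals, and pools of a group were not stated to be separate cohorts. The fits were run on simulated data in which the unwanted variation was balanced between groups. Such data cannot show how the fits behave where it differs between treatments, as the long-transcript share did in the IPN.

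Symbols, positions and transcript lengths came from GENCODE vM21, in which 42462 of 43432 identifiers, and all 44 channel genes, were found. No protein or promoter sequence is shown. Results of 3 of the channel genes are not reported here, though they are included in counts, sums and medians. Paralogs among the channel genes share stretches of sequence, and how RSEM split reads between them was not checked. Genes given with values were those passing in a treatment comparison, the 3 highest of each class, the 6 largest differences per comparison of regions in TA mice, the 2 of smallest p where none passed, and those described under closer look. The genes and lists were chosen with earlier results of these data known. No 2 libraries were identical. Alternatives were another pseudocount (0.1), no filter, a mean of at least 1 TPM, no factors, 2 factors between regions, quantile normalization, only the 2 groups compared, a replicate block, each library left out, and, added after seeing the data, removal of the trend on transcript length with and without factors. Figures were drawn with matplotlib 3.10.9 in Python 3.11.15.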

Additional observations from a re-analysis of the deposited data

Results flagged for a closer look

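Class sums and 4 to 5 library values of named channel genes were screened for a library far from the rest of its group, a screen that by chance picks about 5% of groups. It picked 17 of 104 groups of class sums and 11 of 78 groups of single genes, and several come from the same few libraries. MHb NLWD replicate 5 was high in 8 of them: all channel genes (986.34 TPM, against 341.26 to 523.55 TPM in the others), Cav alpha1 (57.11, against 19.18 to 28.79 TPM), Cav beta (316.19, against 113.53 to 157.13 TPM), Cav gamma (189.15, against 56.8 to 94.52 TPM), HCN (45.9, against 10.8 to 16.45 TPM), Cacnb1 (29.99, against 7.68 to 10.66 TPM), Scn2b (93.04, against 27.59 to 43.06 TPM) and Scn3b (93.54, against 25.73 to 44.56 TPM).

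NAc TAL replicate 2 was also high in 8: all channel genes (559.39 TPM, against 262.05 to 323.63 TPM), Cav alpha1 (38.1, against 14.92 to 20.42 TPM), Cav alpha2delta (44.35, against 21.29 to 27.88 TPM), Cav beta (67.96, against 35.54 to 43.48 TPM), Cav gamma (127.64, against 58.42 to 71.45 TPM), Nav beta (241.08, against 117.56 to 143.96 TPM), Cacnb1 (26, against 12.34 to 14.64 TPM) and Scn2b (57.77, against 29.82 to 33.05 TPM). NAc NAWD replicate 2 was high in Cav alpha2delta (80.2, against 28.91 to 36.52 TPM) and Nav alpha genes (54.52, against 16.69 to 20.73 TPM). NAc TA replicate 2 was low in Nav beta genes (537.96, against 992.24 to 1164.71 TPM) and in Cacnb1 (59.45, against 139.87 to 159.32 TPM).

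MHb TA replicate 1 was high in Cacna1a (12.1, against 4.06 to 4.7 TPM) and Scn3b (98.55, against 53.33 to 60.66 TPM). MHb TAL replicate 2 was high in Cacna1a (4.91, against 1.04 to 1.89 TPM) and Scn3b (70.55, against 17.54 to 31.28 TPM). MHb NAWD replicate 3 was low in Cav gamma genes (118.13, against 161.2 to 163.84 TPM), and replicate 2 was high in Scn2b (80.53, against 67.99 to 69.76 TPM). IPN NAWD replicate 2 was high in Nav beta genes (571.06, against 486.31 to 505.36 TPM), and NAc NLWD replicate 1 was low in HCN genes (13.12, against 27.5 to 33.28 TPM).

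For 3 of the genes reported here, a treatment effect differed between regions by a test of the difference itself. On the log2 scale these were Cacnb1 (0.91) and Scn2b (1.21) for NAWD against TA in IPN minus NAc and Cacna1s (-1.20) for Nic against TA in MHb minus NAc.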

How the results depend on the processing

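The share of all genes past an adjusted p of 0.01 moved with the setting, as from 0.00555% to 60.9% for NAWD against Nic in the IPN. The values here are counts of channel genes past that threshold. Those without a share of all genes show only how the calls moved. Without factors they were 1 for Nic and 1 for NAWD against TA in the IPN, 38 for NAWD against Nic in the IPN, 1 for NAWD against Nic in the MHb, 1 for NLWD against TAL in the NAc, 0 (IPN minus NAc) and 2 (MHb minus NAc) for the NAWD differences, and 27 (IPN minus NAc) and 0 (MHb minus NAc) for the Nic differences. Without factors and with the length trend removed they were 14 for NAWD against Nic in the IPN, 9 for Nic against TA and 4 for NLWD against TAL in the NAc, 0 and 1 for the NAWD differences and 14 for Nic in IPN minus NAc. With the length trend removed and factors kept they were 6 for Nic against TA in the NAc, 1 for NAWD in IPN minus MHb and 2 for Nic in MHb minus NAc. Between regions of TAL mice, where no factors were fitted, removing the length trend gave 11, 11 and 18 (MHb and IPN, MHb and NAc, IPN and NAc). With no filter they were 0 for Nic against TA in the NAc and 1 for MHb against IPN in TAL mice. With only the 2 groups, Nic against TA in the NAc gave 0.

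With 2 factors between regions, 13 passed for MHb against NAc in TA mice (14.5% of all genes), and Cacng7 turned to 0.18 there. In TAL mice the counts were 17, 15 and 24, and for MHb against IPN 2469 of all 13092 genes passed. A pseudocount of 0.1 gave 1 for MHb against IPN in TAL mice and 2 for Nic in IPN minus NAc, and a mean of at least 1 TPM gave 5 for MHb against IPN in TAL mice. Quantile normalization gave 12, 10 and 18 in TAL mice, 1 (IPN minus MHb) and 4 (IPN minus NAc) for NAWD differences, and 3 and 0 for Nic in IPN and MHb minus NAc. Deviations of libraries with the same number had a mean correlation of 5.3e-05 to 0.0699 over the sets of libraries fitted, with negative lowest values. In the regions of TA mice it was 0.0699, against -0.0174 for libraries with different numbers. For Nic, NAWD and TA libraries of the MHb it was 5.3e-05, against 0.000432. The labels do not say whether libraries with the same number share animals, and these correlations cannot settle it. With a replicate block, counts were 0 for Nic against TA in the NAc and 0 (IPN minus NAc) and 2 (MHb minus NAc) for Nic differences, with no other count moved by over 1.5 times. No paired analysis was possible for NLWD against TAL in the IPN because the groups share no numbers.

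Leaving out 1 library at a time gave 12 to 18, 19 to 26 and 18 to 21 between regions of TA mice, 1 to 6, 4 to 6 and 8 to 12 in TAL mice, 0 to 10 for Nic and 0 to 7 for NAWD against TA in the NAc, and 0 to 1 for NLWD against TAL in the IPN. NAWD differences gave 0 to 1 (IPN minus MHb) and 0 to 8 (IPN minus NAc), Nic differences 0 to 6 (IPN minus NAc) and 0 to 3 (MHb minus NAc), and the other comparisons 0 throughout. The highest values for differences from the NAc, 8 and 6, were without NAc TA replicate 2. The cause of these changes was not tested. Depth cannot be read from TPM, and genes under 1 TPM have little weight.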
